A study of Mus musculus with 12 samples.

Results

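Chaperones and heat shock proteins were followed across regulatory and conventional T cells from the spleens of young, aged and Dcaf1-deficient mice. The members were taken by gene symbol: every gene whose name starts with Hsp, Dnaj, Pdia or Fkbp, the chaperonin subunits Tcp1 and Cct2 to Cct8, Bag1 to Bag6, Calr, Canx and Hyou1, where the estimated counts summed to at least 120 over the 12 libraries. Of 82 genes that matched by name, 9 fell below that sum and 73 were kept, out of 13404 genes in the count table. The deposited count table has no row under the symbols Cct2, Cct7, Pdia4, Pdia6, Dnajb9, Dnajc3, Dnajb1 and Bag3, so these were not examined. By textbook location, 44 of the 73 belong to the cytosol and nucleus, 18 to the endoplasmic reticulum (ER) and 9 to the mitochondrion. The other 2 were left unplaced: Dnajc22, and Hspg2, which matches by name but encodes perlecan, a proteoglycan of the extracellular matrix and no chaperone. Closest to the minimum on the inside were Fkbp10 (a summed count of 122.0), Hspa12b (130.0) and Fkbp14 (131.0), and closest on the outside were Hspb7 (101.7) and Dnajb3 (101.1).

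Chaperones bind unfolded stretches of protein and release them in cycles driven by ATP, so that the protein can fold, cross a membrane or be handed to the proteasome. Each compartment has its own set: HSC70 (Hspa8), HSP90 and the ring-shaped chaperonin in the cytosol, BiP (Hspa5), GRP94 (Hsp90b1) and the lectins calreticulin and calnexin in the ER, and HSP60 (Hspd1), HSP10 (Hspe1) and mortalin (Hspa9) in mitochondria. Heat shock factors raise the inducible cytosolic genes when proteins unfold there, and the unfolded protein response raises the ER genes when the ER is loaded, as it is in lymphocytes that secrete or carry many membrane proteins.

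The study measured poly(A) RNA of sorted splenic T cells from C57BL/6 mice by RNA sequencing, with 2 libraries in each of 6 groups. Regulatory T cells (Treg, sorted as CD4+CD25+) and conventional CD4+ T cells (Tconv) came from young wild-type mice of 2 months, from aged wild-type mice older than 18 months, and from mice of 2 months labelled Dcaf1-deficient. Dcaf1 (listed here as Vprbp) encodes a substrate receptor of a cullin-RING ubiquitin ligase. The labels give neither the allele nor the cells in which Dcaf1 was deleted, nor do they say that the 2 libraries of a group came from separate animals, so p-values measure only the spread between these samples.

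The sequences below show the ER stress element near the start of 4 ER members. For 3 cytosolic members they show paired heat shock units, which are shorter than the run of 3 units counted further below. Such motifs are known from targets of the 2 responses. A match here is a description of letters, not evidence of binding. They were read from RefSeq promoter windows (GRCm38.p6, the mm10 assembly), from 250 bases before to 50 bases after the gene start, which were found for 59 of the 73 members. Capitals mark the ER stress element (CCAAT, 9 bases of any kind, then CCACG, read on either strand) in the first 4 sequences. In the last 3 they mark paired heat shock units, TTC and GAA in either order with 2 bases of any kind between them, a pattern that reads the same on both strands.
Hspa5, chr2:34772020-34772048, plus strand: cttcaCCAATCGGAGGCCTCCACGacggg
Hsp90b1, chr10:86705510-86705694, minus strand: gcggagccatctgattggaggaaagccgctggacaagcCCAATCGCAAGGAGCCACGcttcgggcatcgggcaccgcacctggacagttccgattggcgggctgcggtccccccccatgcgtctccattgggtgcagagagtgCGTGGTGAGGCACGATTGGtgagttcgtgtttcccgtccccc
Calr, chr8:84847035-84847133, minus strand: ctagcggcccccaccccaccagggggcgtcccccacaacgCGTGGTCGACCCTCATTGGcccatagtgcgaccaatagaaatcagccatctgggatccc
Canx, chr11:50325760-50325858, minus strand: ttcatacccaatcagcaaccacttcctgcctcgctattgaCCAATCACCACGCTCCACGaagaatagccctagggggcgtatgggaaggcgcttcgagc
Hspa1a, chr17:34972213-34972300, minus strand: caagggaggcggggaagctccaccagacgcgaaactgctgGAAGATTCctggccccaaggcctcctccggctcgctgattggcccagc
Hspa1b, chr17:34959295-34959382, minus strand: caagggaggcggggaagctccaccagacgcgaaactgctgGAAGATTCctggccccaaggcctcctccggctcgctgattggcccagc
Hsph1, chr5:149636351-149636380, minus strand: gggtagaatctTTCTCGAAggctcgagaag

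The ER stress element was present in 4 of the 15 ER members with a window, in none of 37 cytosolic and none of 6 mitochondrial members, and in 37 of 27025 mouse genes (0.137%). Hsp90b1 carried 2 copies, on opposite strands. The printed sites of Hspa5 and Hsph1 lie in a first exon of the GENCODE M21 annotation, and the other printed sites lie outside its exons. A related element, ATTGG and CCACG with 1 base between them on either strand, was found in Dnajb11 and in 12 genes in all (0.0444%). The paired heat shock units were found in 15 of the 59 members with a window and in 17.0% of all genes. By compartment these were 11 of 37 cytosolic, 2 of 15 ER and 2 of 6 mitochondrial members. The longer run of 3 alternating units, each 2 bases from the next, overlaps the paired motif. It was found in 4 of the 59, Dnajb6, Hsph1, Hspd1 and Hspe1, against 0.662% of all genes. The run of Hsph1 lies after its gene start, outside the printed stretch, and the windows of Hspa1a and Hspa1b held no such run. For both motifs the sites of Hspd1 and Hspe1 are the same bases, between their 2 starts. The stretch printed for Hspa1a and Hspa1b is the same in both, as these genes are near-identical copies, so the authors' read assignment could split their counts either way and their separate values are uncertain.

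Libraries held 18358477 to 26852448 estimated counts. Treg identity showed in the labelled Treg, with the 4 Treg markers summing to 1918 to 7224 CPM (counts scaled to the same total in every library), against 336.5 to 409 in young and Dcaf1-deficient Tconv. In the 2 aged Tconv libraries the 4 Treg markers reached 2129 and 3151 CPM. Foxp3, the Treg transcription factor, was at 334 and 675 CPM there against 47.7 and 78.4 in young Tconv. Il2ra, the Treg marker that encodes CD25, was at 43.1 and 29.7 CPM there against 31.8 and 63.2. Transcripts of other spleen cells varied within groups: the 5 macrophage markers in the table of 8 listed summed to 79.9 and 2314 CPM in young Treg 1 and 2, to 5608 and 479.7 in aged Treg 1 and 2, to 6710 and 8146 in Dcaf1-deficient Treg, and to 12.2 to 621 in Tconv. Over the chaperone members, aged Treg 1 was closer to Dcaf1-deficient Treg 1 (median absolute log2 difference 0.06) than to aged Treg 2 (0.23), and aged Tconv 2 was closer to aged Treg 2 (0.16) than to aged Tconv 1 (0.35). Vprbp itself was counted at 102 and 101 CPM in Dcaf1-deficient Treg against 144 and 128 in their young counterparts, and at 132 and 132 CPM in Dcaf1-deficient Tconv against 147 and 144. These values sum reads from all exons, which leaves a deletion of part of the gene unchecked, and the label is used as given.

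The members covered the full range of expression. The mean over the 12 libraries was at least 100 CPM for 38 members, between 10 and 100 for 18, between 1 and 10 for 11 and below 1 for 6. Per kilobase of transcript, known for 72 members, the cytosolic HSC70 gene Hspa8 was the most abundant member at 1636 CPM per kb, ahead of the constitutive HSP90 gene Hsp90ab1 at 1180. The leading ER members were Calr (407.8 CPM per kb), Hspa5 (349), Hsp90b1 (329) and Pdia3 (304), and the leading mitochondrial member was Hspe1 (161). Summed over all members, chaperone transcripts made up 17010 to 23400 CPM. ER members took 19% of that sum in young Tconv 1 and 36.4% in aged Tconv 2, the lowest and highest of the 12 libraries, while mitochondrial members took 5.1% to 7.0%.

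Age and the Dcaf1-deficient label were each compared with young cells within Treg and within Tconv, to ask which members differ in level. edgeR's quasi-likelihood test, adjusted by Benjamini-Hochberg over 9495 genes, called members at an adjusted p under 0.05 in 1 of these 4 comparisons. In aged against young Tconv, 4 of 73 members rose and 1 fell, 6.85% of members, where 8.86% of all genes were called; 12 were higher and 4 lower at an unadjusted p under 0.05 (28.1% of genes), and DESeq2 called 11 (21.6% of genes). In aged against young Treg no member and no gene at all was called (0%); 7 members were higher and none lower at an unadjusted p under 0.05, which 17.9% of all genes passed, and DESeq2 called 4 (7.89% of genes). In Dcaf1-deficient against young Treg no member and no gene was called (0%); 5 members were higher and 1 lower at an unadjusted p under 0.05, against 24.8% of genes, and DESeq2 called 3 (12.8% of genes). In Dcaf1-deficient against young Tconv edgeR again called nothing (0%), with 2 members higher and 3 lower at an unadjusted p under 0.05, against 10% of genes, and DESeq2 called 1 (2.45% of genes). Both comparisons within a cell type share the same 2 young libraries.

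Split by compartment, ER members had a log2 fold change above 0 in 17 of 18 cases in aged Treg, 15 in aged Tconv, 17 in Dcaf1-deficient Treg and 17 in Dcaf1-deficient Tconv, where 52.4%, 49.5%, 49.4% and 49.7% of all genes were above 0. Their median log2 fold changes were 0.47, 0.45, 0.31 and 0.29, while the medians over all genes were 0.02, 0.00, -0.01 and 0.00. Both libraries lay above both young libraries for 10, 12, 15 and 12 of the 18, against 20.2%, 29.9%, 35.2% and 34.2% of all genes. Of the mitochondrial members, 3, 1, 6 and 3 of 9 were above 0, with medians of -0.11, -0.18, 0.04 and -0.03. Cytosolic members were spread about 0, with 24, 26, 22 and 20 of 44 above 0 and medians of 0.03, 0.11, 0.01 and -0.02. In these bulk samples, fewer cells of a type and less RNA per cell cannot be told apart.

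**Figure D1:**
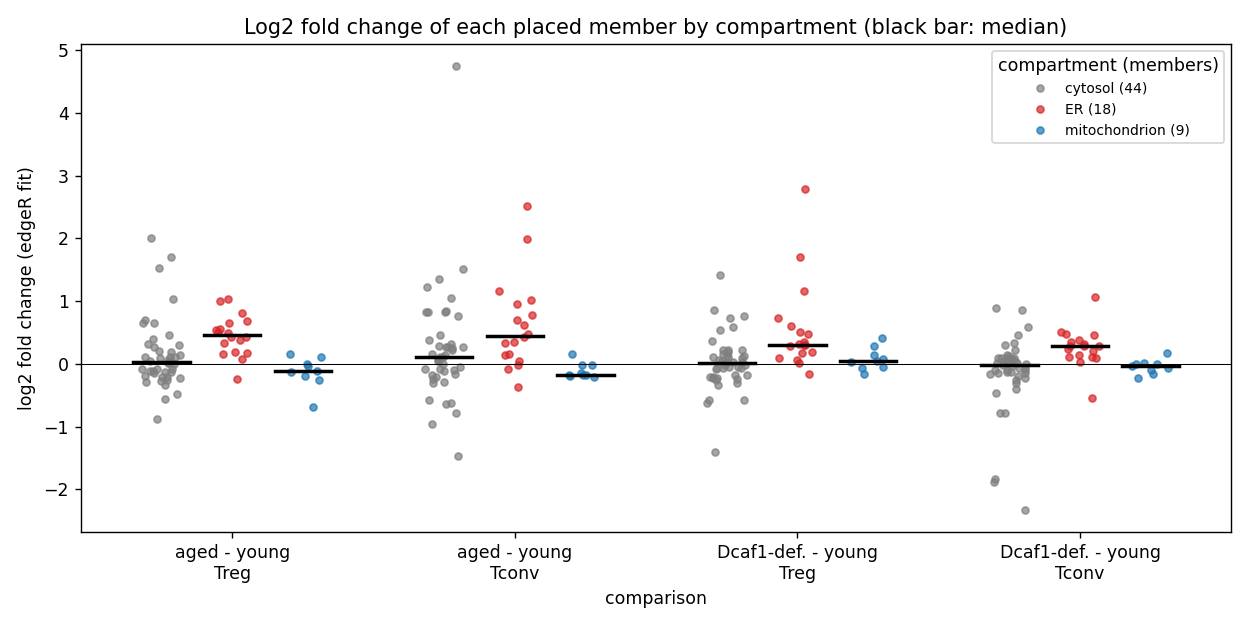
Each point is 1 member, plotted by its log2 fold change (y axis, edgeR fit) in the 4 comparisons with young cells (x axis) and coloured by compartment, with a black bar at the median of each compartment. The red ER points lie mostly above 0, with medians of 0.47, 0.45, 0.31 and 0.29 from left to right, while the cytosolic and mitochondrial points scatter about 0.

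The ER medians moved with particular libraries. Without aged Tconv 2 the ER median in aged Tconv was 0.17, and without aged Tconv 1 it was 0.76. With 2 added terms for the mean levels of macrophage and B cell markers, the ER medians became 0.11 in aged Treg, 0.53 in aged Tconv, 0.09 in Dcaf1-deficient Treg and 0.04 in Dcaf1-deficient Tconv, with 12, 16, 12 and 11 of 18 members above 0. Leaving out young Treg 2 and aged Treg 1 gave 0.54 in aged Treg and 0.41 in Dcaf1-deficient Treg. The 5 macrophage markers had median log2 fold changes of 1.41, -1.36, 2.67 and 3.0 in the same order, and none was called by edgeR in any of the 4 comparisons. Plasma cells are rich in ER, and their 5 markers in the table summed to 178 and 2333 CPM in the young Treg pair, 965 and 766 in the aged pair, 1008 and 1657 in the Dcaf1-deficient pair, and 127.5 to 455 in Tconv, where aged Tconv 1 and 2 held 245 and 404. Of these, Tnfrsf17 was at 0 in young Treg 1 and aged Tconv 1. The 5 did not move together with age. Jchain had log2 fold changes of -1.54 in aged Treg and -2.535 in aged Tconv, and Tnfrsf17 had -2.01 and -4.46. Sdc1 had -0.38 and 0.59, Xbp1 0.14 and 0.74, and Prdm1 3.05 and 2.92 in that order. Prdm1 was called higher in aged Tconv (edgeR adjusted p = 0.0328). The sum in aged Treg 2 held 514 CPM of Prdm1, 183 of Xbp1 and 65.85 of Jchain. That in aged Tconv 2 held 188.8, 199.5 and 12.55. The 6 proliferation markers summed to 64.0 and 127 CPM in the young Tconv pair, 99.5 and 342 in the aged one and 479.7 and 507 in the one labelled Dcaf1-deficient. Among Treg they summed to 103 and 262 CPM in the young pair, 801 and 239.7 in the aged pair and 894 and 743 in the Dcaf1-deficient pair. In both comparisons of the Dcaf1-deficient label all 6 lay above the young libraries without overlap, with median log2 fold changes of 2.19 in Treg and 2.37 in Tconv. The 5 erythroid markers had medians of 3.86 and 4.78 there and the 6 neutrophil markers 4.97 and 5.70, all without overlap, and edgeR called none of these marker genes. The part of plasma cell, proliferation, erythroid and neutrophil transcripts in the ER values was not tested.

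Hspa5 encodes BiP, the HSP70 of the ER lumen that also holds the stress sensors inactive, and lies at chr2:34771970-34777547 on the plus strand. It was at 1053 and 984 CPM in young Tconv, 1640 and 2312 in aged Tconv, and 1163 and 1185 in Dcaf1-deficient Tconv. In Treg it was at 1043 and 921 CPM in the young pair, 1108 and 1756 in the aged pair and 1080 and 1131 in the Dcaf1-deficient pair. Both aged Tconv libraries stood above the other 4 Tconv libraries, and aged Tconv 2 and aged Treg 2 were the higher of their pairs. Hspa5 rose 1.94-fold in aged Tconv (log2 fold change 0.96 with SE 0.24, edgeR adjusted p = 0.046). Without aged Tconv 2 the log2 fold change was 0.69 (edgeR adjusted p = 0.232). In the other 3 comparisons the log2 fold changes were 0.54 (SE 0.23, edgeR adjusted p = 0.279) in aged Treg, 0.17 (SE 0.23, adjusted p = 0.647) in Dcaf1-deficient Treg and 0.20 (SE 0.23, adjusted p = 0.757) in Dcaf1-deficient Tconv.

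Hspa13 encodes STCH, a microsomal protein with an HSP70-type ATPase domain, at chr16:75745431-75767104 on the minus strand. Its levels were 22.9 and 25 CPM in young Tconv, 42.5 and 64.6 in aged Tconv, and 32.6 and 33.7 in Dcaf1-deficient Tconv. In Treg they were 31.7 and 33.9 CPM in the young pair, 49.2 and 53.5 in the aged pair and 41.0 and 50.2 in the Dcaf1-deficient pair. Neither older nor Dcaf1-deficient libraries overlapped with the young ones in either cell type. Hspa13 rose 2.24-fold in aged Tconv (log2 fold change 1.16 with SE 0.20, edgeR adjusted p = 0.0226), with a log2 fold change of 0.83 and an adjusted p of 0.0647 without aged Tconv 2. The log2 fold changes of 0.65 in aged Treg (SE 0.20, edgeR adjusted p = 0.185), 0.48 in Dcaf1-deficient Treg (SE 0.20, adjusted p = 0.193) and 0.47 in Dcaf1-deficient Tconv (SE 0.20, adjusted p = 0.495) did not pass.

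Hsp90b1, which carries both ER stress elements shown above, encodes GRP94, the ER HSP90 that folds integrins and Toll-like receptors. Its levels were 587 and 885 CPM in the young Treg pair, 1164 and 1213 in the aged Treg pair, 1251 and 1205 in that labelled Dcaf1-deficient. Among Tconv they were 617 and 584 CPM in the young pair, 750.4 and 1193 in the aged pair and 809.5 and 901.5 in the Dcaf1-deficient pair. The young libraries were the lowest in both cell types, although young Treg 2 lay far above young Treg 1. The log2 fold changes were between 0.51 in Dcaf1-deficient Tconv (SE 0.24, edgeR adjusted p = 0.517) and 0.74 in Dcaf1-deficient Treg (SE 0.25, adjusted p = 0.147), with 0.69 in aged Treg (adjusted p = 0.222) and 0.69 in aged Tconv (adjusted p = 0.112). None passed. Without young Treg 2 and aged Treg 1, the log2 fold change in Dcaf1-deficient Treg was 1.07, with young Treg 1 as the only young Treg library. That library held 79.9 CPM of macrophage markers, against 6710 and 8146 in the Dcaf1-deficient pair. The part of macrophage transcripts in this value was not tested.

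Calreticulin and calnexin hold newly made glycoproteins in the ER until they are folded. Calr was at 668 and 699 CPM in the young Treg pair, 975 and 1410 in the aged Treg pair, 991 and 955 in that labelled Dcaf1-deficient, 583 and 551 in young Tconv, 802 and 1499 in aged Tconv, and 751 and 805 in Dcaf1-deficient Tconv. Canx was at 366 and 406 CPM in the young Treg pair, 564 and 480.3 in the aged Treg pair, 583 and 589 in that labelled Dcaf1-deficient, 323 and 328 in young Tconv, 332 and 541 in aged Tconv, and 372 and 394 in Dcaf1-deficient Tconv. For both genes the young libraries were the lowest in each cell type, without overlap, and aged Tconv 2 stood well above aged Tconv 1. Calr had log2 fold changes of 1.02 in aged Tconv (SE 0.28, edgeR adjusted p = 0.0596) and 0.80 in aged Treg (SE 0.28, adjusted p = 0.212). Canx had log2 fold changes of 0.60 in Dcaf1-deficient Treg (SE 0.21, edgeR adjusted p = 0.153) and 0.23 in Dcaf1-deficient Tconv (SE 0.20, adjusted p = 0.684).

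Pdia3, a disulfide isomerase that works on glycoproteins held by these lectins, was at 777 and 707.5 CPM in the young Treg pair, 914 and 1197 in the aged Treg pair, 939 and 859.8 in that labelled Dcaf1-deficient, 577 and 603 in young Tconv, 685 and 1348 in aged Tconv, and 726.5 and 769.5 in Dcaf1-deficient Tconv. Hyou1, a large HSP70 relative that acts as nucleotide exchange factor for BiP, was at 157 and 187 CPM in the young Treg pair, 192 and 202.5 in the aged Treg pair, 210.1 and 215 in that labelled Dcaf1-deficient, 161 and 155 in young Tconv, 177 and 306 in aged Tconv, and 193 and 192 in Dcaf1-deficient Tconv. Dnajb11, a J protein that feeds substrates to BiP, was at 123 and 145 CPM in the young Treg pair, 166 and 183 in the aged Treg pair, 173 and 166.5 in that labelled Dcaf1-deficient, 124 and 135.5 in young Tconv, 134 and 225 in aged Tconv, and 153 and 163 in Dcaf1-deficient Tconv. Young libraries were lowest for all 3 genes apart from Dnajb11, where aged Tconv 1 lay between the 2 young Tconv libraries. Their log2 fold changes in aged Tconv were 0.79, 0.61 and 0.47, with edgeR adjusted p of 0.115, 0.114 and 0.194.

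**Figure D2:**
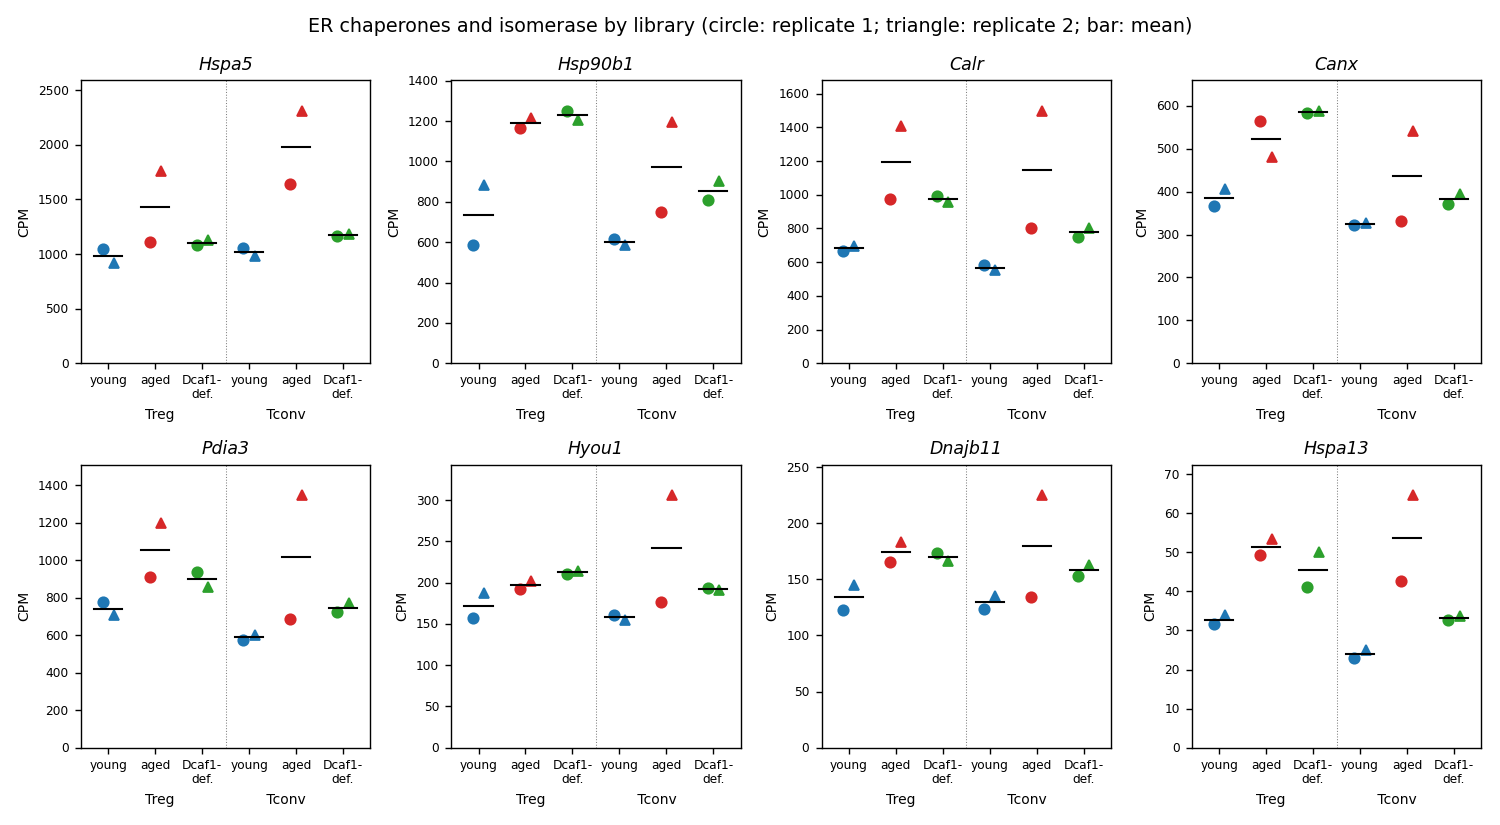
The 8 panels show CPM (y axes, from 0) of 7 ER chaperones and the isomerase Pdia3 in the 6 groups (x axes, Treg left and Tconv right of the dotted line), with a circle for replicate 1, a triangle for replicate 2 and a bar for the mean. Aged Tconv 2 is the highest Tconv library in every panel, for example 2312 CPM for Hspa5 and 1499 for Calr, and the young groups are low.

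The 2 libraries with the highest Hspa5 and Calr in their groups differed from their replicates in other ways too. Aged Treg 2 and aged Tconv 2 are the only libraries whose titles carry the tag L3, whose meaning the labels do not state, and each had a far higher level of Xist (2018 and 1263 CPM) than its replicate (2.38 and 2.94 CPM). Dcaf1-deficient Treg 2 also differed in Xist from its replicate (1658 against 1.37 CPM), and there Hspa5 was at 1131 and 1080 CPM. Both Dcaf1-deficient Tconv libraries were high in Xist (1321 and 1339 CPM) and both young ones low (2.39 and 2.64), so that the label and this difference cannot be told apart in Tconv. With the tag L3 as a term, Hspa5 in aged Tconv had a log2 fold change of 0.65 (edgeR adjusted p = 0.0222) and Hspa13 one of 0.96 (adjusted p = 0.0239).

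The remaining ER isomerases were far less abundant and less even. Fkbp9, an ER-resident prolyl isomerase, was at 0.141 and 3.38 CPM in the young Treg pair, 6.02 and 1.01 in the aged Treg pair, 7.38 and 4.07 in that labelled Dcaf1-deficient, and at 0 to 0.439 CPM in Tconv. Its 4 highest libraries were the 4 with the most macrophage transcripts among all 12. The same 4 also held the most B cell and plasma cell transcripts. Young Treg 1, the Treg library with the least of all 3 kinds, was the lowest in Treg. The source of the Fkbp9 transcripts was not tested. Fkbp14 was at 0.141 to 1.10 CPM in Treg and 0 to 0.665 in Tconv, and Fkbp7 at 1.98 to 2.74 and 0.856 to 2.27. Fkbp10, which acts on collagen chains, was at 0 to 0.420 CPM in Treg and 0.289 to 2.23 in Tconv, its highest values being 1.17 and 2.23 in the 2 aged Tconv libraries. For scale, 3 counts in a library correspond to 0.112 to 0.163 CPM.

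Among cytosolic members, Fkbp5 was above its young level in every aged and Dcaf1-deficient library. It encodes FKBP51, an HSP90 co-chaperone that lowers the hormone affinity of the glucocorticoid receptor and is itself induced by that receptor, and lies at chr17:28399094-28517527 on the minus strand. Fkbp5 was at 102 and 98.8 CPM in young Tconv, 320.5 and 249.6 in aged Tconv, and 151 and 149 in Dcaf1-deficient Tconv. In Treg it was at 92.3 and 104 CPM in the young pair, 162 and 156 in the aged pair and 156 and 130.5 in the Dcaf1-deficient pair. The 4 young libraries lay at 92.3 to 104 CPM and the other 8 at 130.5 to 320.5, with no overlap.

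Fkbp5 rose 2.84-fold in aged Tconv (log2 fold change 1.51 with SE 0.14, edgeR adjusted p = 0.0107). The log2 fold changes in aged Treg (0.70, SE 0.14, edgeR adjusted p = 0.126), Dcaf1-deficient Treg (0.54, SE 0.14, adjusted p = 0.131) and Dcaf1-deficient Tconv (0.58, SE 0.14, adjusted p = 0.337) did not pass with edgeR, and DESeq2 gave adjusted p of 0.0006, 0.00852 and 0.0226 for them. The difference between its age effects in Treg and Tconv was -0.81 (SE 0.19), with an adjusted p of 0.407 by edgeR and 0.053 by DESeq2. Of the other cytosolic FKBP genes, Fkbp4, the counterpart FKBP52 that favours receptor signalling, was at 122.6 to 195 CPM in Treg and 132 to 216 in Tconv, lowest in aged Treg 2 and aged Tconv 2. Fkbp1a, which encodes the tacrolimus-binding FKBP12, was at 134.5 to 179 CPM in Treg and 169 to 226 in Tconv.

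The remaining calls in aged Tconv were 1 small heat shock protein and 1 J protein. Hspb1 encodes HSP27, which holds unfolding proteins in large oligomers, and lies at chr5:135887919-135889563 on the plus strand. It was at 0.235 and 0.110 CPM in young Tconv, 7.44 and 2.19 in aged Tconv, and 0.0976 and 0.193 in Dcaf1-deficient Tconv, while Treg libraries ranged from 0.563 to 5.02. Its log2 fold change in aged Tconv was 4.74 (SE 0.97, edgeR adjusted p = 0.0307), a size that rests on young levels near 3 counts a library (0.133 and 0.158 CPM). Dnajb5, a cytosolic J protein at chr4:42949814-42959425 on the plus strand, was at 33.5 and 31.6 CPM in young Tconv, 20.3 and 17.6 in aged Tconv, and 30.1 and 28.9 in Dcaf1-deficient Tconv. It fell in aged Tconv (log2 fold change -0.78 with SE 0.17, edgeR adjusted p = 0.0335). In Treg it was at 22.1 and 24.1 CPM in the young pair, 20.7 and 15.9 in the aged pair and 25.4 and 25 in the Dcaf1-deficient pair, with a log2 fold change of -0.34 for age (edgeR adjusted p = 0.333).

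These 5 calls depended on which libraries entered, and the share of all genes called moved too. In fits with 1 library left out, some or all of the 5 calls were lost, or more members were called. Each such fit leaves 1 library in a group, so these changes are not read as a result about the members. The log2 fold change of Fkbp5 in aged Tconv was 1.53 and 1.48 without young Tconv 1 or 2. It was 1.31 and 1.68 without aged Tconv 1 or 2. Some Treg transcripts moved with the comparison: 3 of the 4 Treg markers were called higher in aged Tconv. The fourth, Il2ra, had a log2 fold change of -0.38 (edgeR adjusted p = 0.512). Young Treg minus young Tconv gave log2 differences of 2.97 for Hspb1 and 0.45 for Hspa13 (edgeR adjusted p = 0.206 and 0.353). Young levels of Fkbp5 overlapped between the cell types (92.3 and 104 against 102 and 98.8 CPM). The part of Treg transcripts in the calls was not tested.

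**Figure D3:**
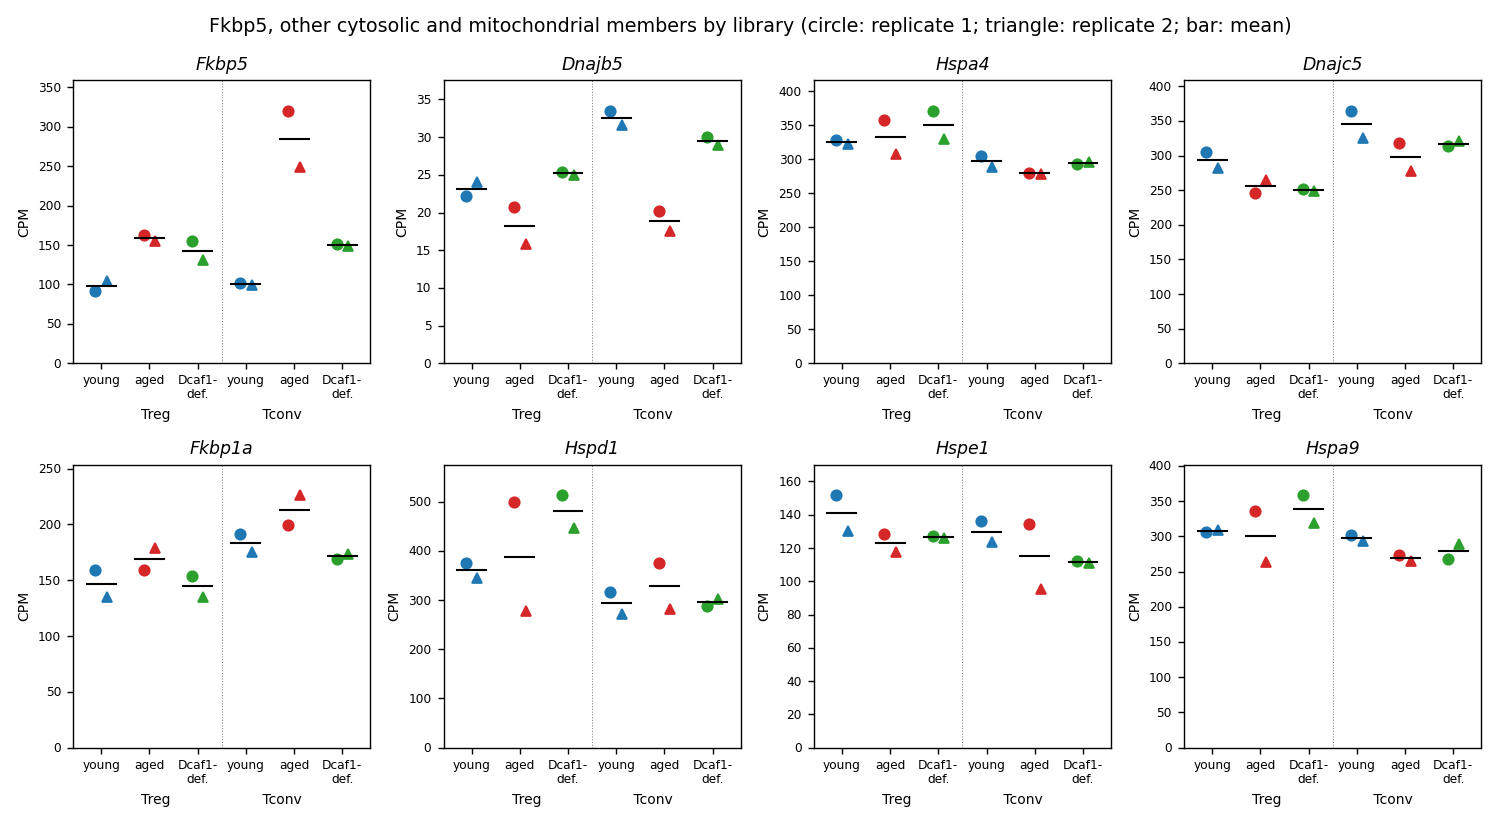
The 8 panels show CPM (y axes, from 0) of Fkbp5, 4 other cytosolic members and 3 mitochondrial members in the 6 groups (x axes, Treg left and Tconv right of the dotted line), with a circle for replicate 1, a triangle for replicate 2 and a bar for the mean. Fkbp5 is at 92.3 to 104 CPM in the 4 young libraries and above 130 in the other 8, and Hspa4 is higher in each Treg than in each Tconv library.

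The heat-inducible cytosolic members varied widely between the 2 libraries of a group. Hspa1a and Hspa1b encode the inducible HSP70. Hspa1a was at 7.72 and 9.95 CPM in the young Treg pair, 27.4 and 43.4 in the aged Treg pair, 18.2 and 11 in that labelled Dcaf1-deficient, 59.6 and 13.8 in young Tconv, 98.8 and 31.6 in aged Tconv, and 10.1 and 9.88 in Dcaf1-deficient Tconv. Hspa1b was at 38.8 and 16.3 CPM in the young Treg pair, 47.7 and 132 in the aged Treg pair, 25.9 and 9.82 in that labelled Dcaf1-deficient, 153 and 23.5 in young Tconv, 221.5 and 94.1 in aged Tconv, and 20.6 and 14.7 in Dcaf1-deficient Tconv. Within young Tconv alone, Hspa1b differed 6.51-fold and Hspa1a 4.32-fold between the 2 libraries. The log2 fold changes of Hspa1a were 2.00 with SE 0.73 in aged Treg (edgeR adjusted p = 0.231) and -1.88 in Dcaf1-deficient Tconv (SE 0.73, adjusted p = 0.463), and the latter was 0.18 with terms for macrophage and B cell markers.

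Hsph1, the HSP110 exchange factor for HSP70, was at 225 and 129.6 CPM in the young Treg pair, 263 and 139 in the aged Treg pair, 211 and 171 in that labelled Dcaf1-deficient, 282 and 137 in young Tconv, 531 and 211 in aged Tconv, and 172 and 195 in Dcaf1-deficient Tconv. Dnaja1, the main cytosolic partner of HSC70 among the J proteins here, was at 642 and 395 CPM in the young Treg pair, 527 and 416 in the aged Treg pair, 491 and 405 in that labelled Dcaf1-deficient, 722 and 497 in young Tconv, 847 and 439 in aged Tconv, and 548 and 593 in Dcaf1-deficient Tconv. Replicate 1 was the higher library for both genes in every group except Dcaf1-deficient Tconv. Of the 60 members with a mean of at least 5 CPM, 8 differed past 2-fold between the 2 aged Tconv libraries, 3 each within aged Treg and young Tconv, 1 each within young Treg and Dcaf1-deficient Treg, and none within Dcaf1-deficient Tconv. In aged Tconv the 8 included Dnajb4 (4.32-fold), Hspa1a (3.12-fold), Hsph1 (2.52-fold) and Hspa1b (2.35-fold), all higher in replicate 1, the library with the lower ER chaperone levels.

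**Figure D4:**
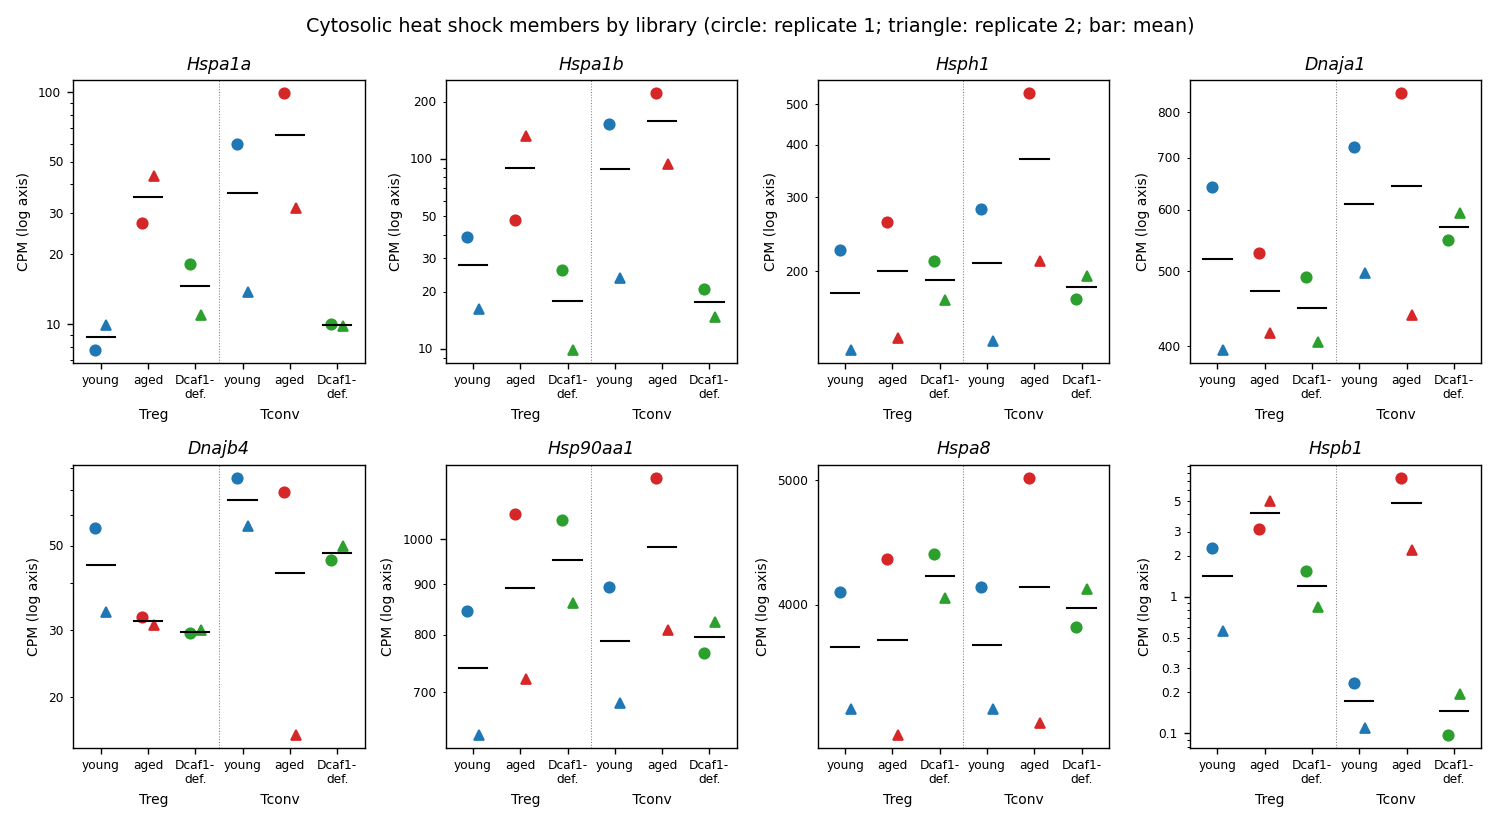
The 8 panels show CPM (log y axes) of cytosolic heat shock members in the 6 groups (x axes, Treg left and Tconv right of the dotted line), with a circle for replicate 1, a triangle for replicate 2 and a bar for the mean. The 2 libraries of young Tconv and of aged Tconv lie far apart for Hspa1a, Hspa1b and Hsph1, and Hspb1 is low in young and Dcaf1-deficient Tconv (0.0976 to 0.235 CPM).

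On the lower side, no member passed in Treg or in Dcaf1-deficient Tconv. The smallest p among lower members in aged Treg were those of Dnajb5, Dnajc5 (log2 fold change -0.20), Dnajc7 (-0.28), a J protein that passes clients between HSP70 and HSP90, and the chaperonin subunit Cct4 (-0.28), with edgeR adjusted p from 0.333 to 0.383. In Dcaf1-deficient Treg they were those of Hspb9 (-1.40), Dnajc5 (-0.23), the ribosome-bound Dnajc2 (-0.20) and Dnajc21 (-0.33), with edgeR adjusted p from 0.167 to 0.235, while Fkbpl, a cytosolic FKBP relative, was among the higher ones (0.76, adjusted p = 0.182). In Dcaf1-deficient Tconv they were those of Cct6b (-1.83), Hspa1a, Hspa1b (-2.32) and the constitutive HSP70 copy Hspa1l (-0.79), with edgeR adjusted p from 0.421 to 0.504.

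Constitutive cytosolic chaperones had small fold changes and no call. Hspa8, which encodes HSC70, was at 3167 to 4381 CPM in Treg and 3235 to 5023 in Tconv. Its log2 fold changes in the 4 comparisons with young cells were between 0.02 and 0.19, with SEs of 0.26. Hsp90ab1 was at 2619 to 3307 CPM in Treg and 2357 to 3808 in Tconv, and the inducible HSP90 gene Hsp90aa1 at 634 to 1061 and 683 to 1154, with log2 fold changes of at most 0.37 (SE 0.26) and no call. The chaperonin, a double ring that folds actin and tubulin, had 7 subunits in the set, with Cct2 and Cct7 missing from the count table. Its summed level was 1759 CPM in aged Treg 2, the lowest, and 2338 in Dcaf1-deficient Treg 1, the highest. Its subunit Tcp1 ranged over the 12 libraries from 341 to 468 CPM, Cct3 from 210.1 to 311, Cct4 from 297 to 452, Cct5 from 330.5 to 500.1, Cct6a from 184 to 281.5 and Cct8 from 341 to 423. Cct6b, the paralogue known from testis, was at 0.289 to 1.22 CPM. Median log2 fold changes of the 7 were -0.09, -0.16, 0.04 and -0.06 in aged Treg, aged Tconv, Dcaf1-deficient Treg and Dcaf1-deficient Tconv.

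BAG proteins release substrates from HSP70, and 3 were in the set. Bag1 was at 104 and 108 CPM in the young Treg pair, 121 and 143 in the aged Treg pair, 128.5 and 119.8 in that labelled Dcaf1-deficient, 96.4 and 102 in young Tconv, 104.5 and 154 in aged Tconv, and 122 and 124 in Dcaf1-deficient Tconv. Its young libraries were the lowest in each cell type, and its log2 fold change in Dcaf1-deficient Tconv was 0.31 (edgeR adjusted p = 0.554). Bag6, which guards membrane proteins on their way to the ER, was at 229 to 310.3 CPM in Treg and 274 to 338 in Tconv. Bag2 reached 7.23 CPM in aged Treg 1 and 7.35 and 7.39 in Dcaf1-deficient Treg, against 1.36 to 3.99 in the other 9 libraries. The split follows the 3 libraries with the most macrophage transcripts, which also held the most proliferation, erythroid and neutrophil transcripts.

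edgeR called no mitochondrial chaperone in any comparison, and DESeq2 called 1, Hspd1, higher in Treg than in Tconv over all conditions (log2 0.44, DESeq2 adjusted p = 0.0293). Hspd1, which encodes HSP60, was at 376 and 345 CPM in the young Treg pair, 499.9 and 277.5 in the aged Treg pair, 514 and 448 in that labelled Dcaf1-deficient, 317 and 272 in young Tconv, 376 and 283 in aged Tconv, and 289 and 303 in Dcaf1-deficient Tconv. Its largest log2 fold change against young cells was 0.42 (SE 0.26, edgeR adjusted p = 0.322), in Dcaf1-deficient Treg. Hspe1, which encodes its lid HSP10 and starts beside Hspd1 on the other strand, had 152 and 130.4 CPM in the young Treg pair and 118 to 128 in the other Treg libraries, and 136 and 123.5 CPM in young Tconv and 95.5 to 135 in the other Tconv libraries. Its log2 fold changes were between -0.22 and -0.16, none called. The start regions of the pair overlap and the strand setting of the counting is not given, so reads from there cannot be told apart. Hspa9, the mitochondrial HSP70 mortalin, was at 264 to 358.5 CPM in Treg and 265 to 302 in Tconv, and its J partner Dnaja3 at 68.4 to 78.3 and 69.8 to 84.9. As a share of chaperone transcripts, the mitochondrial compartment stayed within 5.1% to 7.0% in all 12 libraries, and the ER share ran from 19% to 36.4%.

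Treg and Tconv were also compared with each other. Among young cells edgeR called no member, where 0.8% of genes were called, with 2 members higher and 5 lower in Treg at an unadjusted p under 0.05 (14.3% of genes), and DESeq2 called 1 higher and 1 lower (6.85% of genes). The members with the smallest p were Hspg2 (log2 3.47), Hspb1, Fkbp9 (3.43) and Hspa13 on the higher side and Dnajb5 (-0.49), Dnajc22 (-4.64), Hspa1a (-2.05) and Fkbp1a (-0.32) on the lower, with edgeR adjusted p from 0.206 to 0.397. Over all 3 conditions 4 members were higher and 7 lower in Treg, 15.1% of members against 22.5% of genes; at an unadjusted p under 0.05 there were 11 in each direction (39.2% of genes), and DESeq2 called 18 (31.2% of genes). Hspa4, which encodes an HSP110-type exchange factor for HSP70, was at 308 to 372 CPM in the 6 Treg and 279 to 305 in the 6 Tconv libraries, without overlap (1.89% of genes), and was higher by log2 0.21 (SE 0.06, edgeR adjusted p = 0.038). Hspa12b also did not overlap (0.471 to 1.05 against 0 to 0.385 CPM) and was not called. Hspb1 was higher in Treg by log2 1.91 (SE 0.51, edgeR adjusted p = 0.0348).

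Lower in Treg were Dnajc5, which encodes the cysteine string protein of secretory vesicles, Dnajb6, Dnajc21, Dnajc22, Fkbp1a, Fkbp5 and Fkbp10. Dnajc5 was at 247 to 305 CPM in Treg and 277 to 365 in Tconv (log2 difference -0.27, SE 0.06, edgeR adjusted p = 0.0211). Fkbp1a differed by log2 -0.30 (SE 0.07, edgeR adjusted p = 0.0241), Dnajb6 by -0.25 (adjusted p = 0.0406), Dnajc21 by -0.31 (adjusted p = 0.0458) and Fkbp5 by -0.31 (adjusted p = 0.0283), the last with aged Tconv as its 2 highest libraries. The 2 others were low in count: Dnajc22 was at 0 to 0.151 CPM in Treg and 0 to 2.51 in Tconv (log2 difference -3.31, adjusted p = 0.0321), and Fkbp10 differed by -2.28 (adjusted p = 0.044). By class, 15 of 17 cytosolic J proteins lay below 0 in this comparison (49.8% of genes lay above) and 3 were called, while all 7 chaperonin subunits lay above 0, at 0.07 to 0.12, and none was called.

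The members with the largest differences towards Treg in this comparison were Fkbp9 and Hspg2. Fkbp9 was higher by log2 3.98 (SE 0.96, edgeR adjusted p = 0.0256) and Hspg2 by 2.64 (SE 0.58, adjusted p = 0.0197), and edgeR called all 5 macrophage and 4 of 5 B cell markers higher in Treg too. Hspg2 was at 0.424 and 3.16 CPM in the young Treg pair, 3.94 and 9.11 in the aged Treg pair, 4.39 and 4.41 in that labelled Dcaf1-deficient, 0.0469 and 0.275 in young Tconv, 2.89 and 1.43 in aged Tconv, and 0.634 and 0.579 in Dcaf1-deficient Tconv. Its highest library, aged Treg 2, held 479.7 CPM of macrophage and 58.7 of B cell markers, less than either Dcaf1-deficient Treg library. With terms for macrophage and B cell markers edgeR called no member in this comparison (0.0211% of genes), and the signs turned for Fkbp9 (-1.0) and Hspg2 (-2.40). The share of all genes called in this comparison also moved when a library was left out. Leaving out a library changed the 11 calls as well, and in some of these fits edgeR called no member. Each such fit leaves 1 library in a group, so neither change is read as a result about the members.

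**Figure D5:**
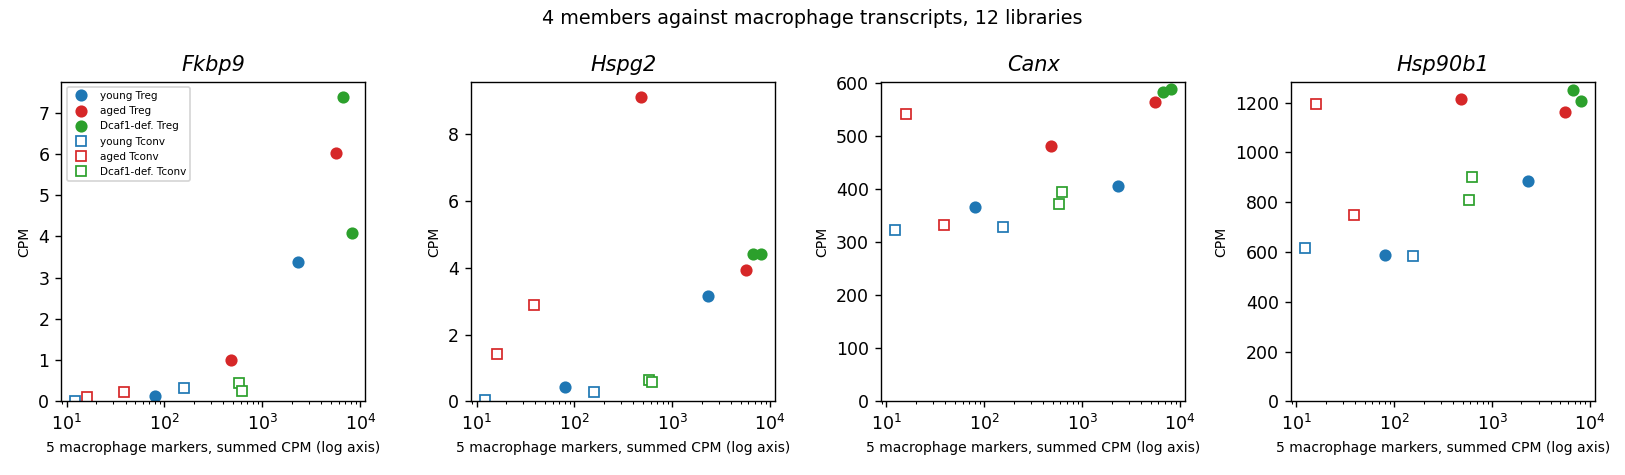
Each point is 1 of the 12 libraries, plotted by the summed CPM of 5 macrophage markers (x axes, log scale) and by the CPM of Fkbp9, Hspg2, Canx or Hsp90b1 (y axes, from 0), with filled circles for Treg and open squares for Tconv. Fkbp9 is at 0.439 CPM or less in all 6 Tconv libraries and reaches 7.38 in Dcaf1-deficient Treg 1. Canx exceeds 563 CPM in the 3 libraries with the most macrophage transcripts, which also held the most proliferation, erythroid and neutrophil transcripts.

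Whether age or the Dcaf1-deficient label moved a member differently in Treg and in Tconv was tested as an interaction. edgeR called no member and no gene (0%) in either interaction. For age, 2 members passed an unadjusted p under 0.05 (6.48% of genes), Fkbp5 and Hspb1, and DESeq2 called none (1.38% of genes). Hspb1 had an interaction of log2 -3.21 (SE 1.22, edgeR adjusted p = 0.693). For the Dcaf1-deficient label 2 members passed an unadjusted p under 0.05 (2.74% of genes), and DESeq2 again called none (0.00871% of genes). They were Hspb9 (log2 -2.29, SE 0.73, edgeR adjusted p = 1) and Hspa1a (log2 2.61, SE 1.02, adjusted p = 1). Hspb9, a small heat shock protein known from testis, was at 0.143 to 1.32 CPM over the 12 libraries. The third smallest p was that of Cct6b (log2 1.65, SE 0.75, edgeR adjusted p = 1) for the label, and that of Dnajb5 (log2 0.44, SE 0.24, adjusted p = 0.856) for age.

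Genes that work beside the members were read out as well. Of 28 listed genes of the unfolded protein response and ER quality control that are no members, 20 were tested. Their median log2 fold changes were 0.11 in aged Treg, 0.30 in aged Tconv, 0.36 in Dcaf1-deficient Treg and 0.23 in Dcaf1-deficient Tconv. The only call among the 4 comparisons was Sec63, the J protein of the ER import channel. It fell in aged Tconv (log2 fold change -0.54, edgeR adjusted p = 0.0412), against the direction of the list's median. That is 5% of the 20, where 8.86% of all genes were called in aged Tconv. Between the cell types over all conditions 5 of the 20 were called (25%, against 22.5% of all genes), where 5 of 5 macrophage, 4 of 5 B cell and 2 of 5 plasma cell markers were called higher in Treg as well and their part was not tested. The 3 higher in Treg were Xbp1, a transcription factor of the response that is also on the plasma cell list (log2 0.56), Syvn1, its ubiquitin ligase (0.56), and Asns, an amino acid synthase under the same stress signalling (2.02). The stress factors Ddit3 (-0.34) and Ppp1r15a (-1.18) were lower. Of 21 listed cytosolic co-chaperones and heat shock factors 10 were tested. The only call in the 4 comparisons was St13, which encodes the HSP70-interacting protein HIP. It rose in aged Tconv (log2 fold change 0.91, edgeR adjusted p = 0.0126), which is 10% of the 10 against 8.86% of all genes. Of 14 listed mitochondrial quality control genes 9 were tested, none was called in these 4 comparisons, and their medians lay between -0.08 and 0.10.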

How the data were processed

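Per the submitters' processing notes, the authors used Salmon 0.9.1, mm10 and DESeq2. Per the file headers, the deposited tables are gene-level estimated counts imported from Salmon and log2 values scaled by DESeq2. Transcript annotation and strand setting are not given in the sources used here. The expected counts were rounded, and CPM were taken over each library's total. edgeR 4.0.16 (R 4.3.3, TMM scaling, filterByExpr, quasi-likelihood test) was fitted once over the 12 libraries with 6 group means, which leaves 6 residual degrees of freedom. Benjamini-Hochberg adjustment ran over 9495 genes in each of 8 comparisons. All 73 members passed the filter, which removed 1991 of 11486 genes with a count. Scripts were tested on simulated data. DESeq2 1.42.0 on the counts and limma 3.58.1 on the deposited log2 values, used as they are, were alternatives. Members, gene lists and tests were chosen with earlier results of these data known. Levels are given for a fixed list of members, and fold changes for called members or, where none was called, for the 4 with the smallest p in each direction (3 for interactions). Per-kilobase levels and positions use GENCODE M21 (GRCm38). Libraries of the same number showed no general pairing. Correlations of deviations over 15 pairs of groups ran from -0.66 to 0.68, with a median of 0.04. Whether single pairs, such as aged Treg 2 and aged Tconv 2, share a source was not tested. In none of the 6 groups did the 2 libraries agree within counting noise; pairs across groups were not tested for it.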

Additional observations from a re-analysis of the deposited data

How the results depend on the processing

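With 2 libraries a group, every call leans on single libraries, and levels near 3 counts a library (0.112 to 0.163 CPM) limit Hspb1, Fkbp9, Fkbp10 and Dnajc22. Of the members' fold changes under the alternatives, 941 kept direction and side of the threshold, 152 lost the call, 17 gained one and 10 reversed. Relative log expression (RLE) scaling in place of TMM and the deposited log2 values tested by limma kept each count of calls within 1.5 times. For Treg against Tconv over all conditions the fit of the compared groups alone is the same fit and was not run. Compartment medians moved by less than the spread between libraries (1 SD) in 266 cases and by more in 22. The counts of members above 0 by compartment under left-out libraries and added terms were not planned and were added after seeing the data.

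DESeq2 called 2 members between the young cell types, 4 in aged Treg, 11 in aged Tconv (5 by edgeR), 3 in Dcaf1-deficient Treg, 1 in Dcaf1-deficient Tconv and 18 in Treg against Tconv over all conditions (11 by edgeR). The compared groups fitted alone gave 0 calls in aged Tconv (0.0345% of genes), where fewer samples enter, and 7 in Dcaf1-deficient Tconv (12.2% of genes). A log2 fold change of at least 1 as a second criterion left 3 in aged Tconv and 5 over all conditions. Over all conditions there were 7 without the filter on low counts (15.8% of genes) and 19 with the tag L3 as a term (29.6%). With macrophage and B cell terms there were 0 (0.0211%), and the cause was not tested. Without young Treg 2 and aged Treg 1 the number called changed over all conditions and in Dcaf1-deficient Treg, and so did the share of all genes called. That share also moved in the fits with 1 library left out. Leaving out 1 library gave 0 to 1 calls in aged Treg (1 without aged Treg 1, aged Tconv 1 or aged Tconv 2), 0 to 20 in aged Tconv, 0 to 1 in Dcaf1-deficient Treg (1 without aged Tconv 1 or 2), 0 to 18 over all conditions and 0 to 1 in the age interaction (1 without aged Tconv 1).

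Signs that reversed did so mostly with macrophage and B cell terms: Hspg2 to -0.00912 between young cell types and -2.40 over all conditions, Fkbp9 to -0.54 and -1.0, Dnajc7 to 0.17 and Cct4 to 0.22 in aged Treg, and Hspa1a to 0.18 and Hspa1b to 0.76 in Dcaf1-deficient Tconv. The cause was not tested. Fkbp9 between young cell types was also -0.13 without young Treg 2 and aged Treg 1, and -0.16 (without young Treg 2) to 8.31 (without young Tconv 2) with 1 library left out.

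The replicate number was also used as a block, although the numbers are not known to pair the samples. With it edgeR called 0, 0, 4, 0, 0, 9, 0 and 0 members. The order is young cell types, aged Treg, aged Tconv, Dcaf1-deficient Treg, Dcaf1-deficient Tconv, all conditions, age interaction and label interaction. Of all genes, edgeR with this block called 8.91% in aged Tconv and 20.2% over all conditions. The call lost in aged Tconv was Hspa5 (log2 fold change 0.94, edgeR adjusted p = 0.0503).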
